A study of Mus musculus with 16 samples.

Results

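The class II peptide loading and lysosomal processing genes were followed in germinal centre B cells of mice with altered Crebbp. The genes are H2-DMa, H2-DMb1, H2-DMb2, H2-Oa, H2-Ob, Ctss, Lgmn, Ifi30, Ctsb and Ctsl, taken by name as the editors of class II peptides and the lysosomal enzymes that work with them. They are 10 of the 48593 genes in the count table. Levels are given as CPM, counts per 1000000 counts of a library, with library sizes scaled by the trimmed mean of M values (TMM). All 10 passed the filter on low counts, and together they took 0.172% to 0.235% of the counts of a library.

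Class II molecules bring peptides from endosomes and lysosomes to the B cell surface, where helper T cells read them. The invariant chain first fills their groove and is trimmed by lysosomal proteases until only a short remnant, CLIP, is left. H2-DM exchanges CLIP for other peptides, and H2-O, found mainly in B cells, binds H2-DM and holds it back. In germinal centres, B cells compete for T cell help with the peptides they present this way. Crebbp encodes an acetyltransferase of histones and other proteins.

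The 16 libraries form 5 groups in 2 cohorts. KO is homozygous for a Crebbp knockout (3 libraries) and has its own wild type, KO cohort WT (3 libraries). RH HET and RH HOMO are heterozygous (4 libraries) and homozygous (3 libraries) for a Crebbp allele that the labels abbreviate as RH, and both are set against the same 3 libraries of RH cohort WT. Every mouse, wild type included, had received sheep red blood cells into the peritoneum, and B220+, PNA+ and CD95+ cells were sorted after a B cell isolation kit, with the spleen named as the organ. The labels give both 12 and 10 days from injection to collection. The series title calls the alleles conditional in germinal centre cells. The Cre driver, the age and the number of mice behind a library are not given in the labels, so p-values measure the spread between libraries. RH cohort WT 1 is titled as wild type of the RH cohort but carries the batch label of the KO cohort, and was used by its title.

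Total counts ran from 41362856 to 93040297 per library. Sex was read from Xist, with more than 1000 counts taken as female. By this, females made up 1 of 3 libraries in KO and 2 of 3 in KO cohort WT. They made up 1 of 4 in RH HET, 2 of 3 in RH HOMO and 1 of 3 in RH cohort WT. The main fit had no term for sex. Crebbp itself lay at 123, 137 and 108 CPM in KO, against 131, 127 and 149 CPM in KO cohort WT, so its gene-level count did not separate the groups. Whether the counted exons lie inside the deleted part is not given in the labels. In the RH cohort Crebbp lay at 124 to 138 CPM in RH HET and 68.6 to 126 CPM in RH HOMO, against 91.3 to 122 CPM in RH cohort WT. On the first principal component of all tested genes RH HOMO 2 stood at 77.1 and RH cohort WT 1 at 50.7, apart from the other 14 libraries at -40.7 to 24.3. Summed B cell and germinal centre markers reached 10342 to 13726 CPM, and summed neutrophil markers at most 0.671 CPM. The T cell list summed to 78.2 to 162 CPM and the dendritic cell list to 35.3 to 59.5 CPM, most of it from 1 gene each, Lck (76.2 to 159.7 CPM) and Flt3 (34.2 to 56.5 CPM). Of the other T cell markers, Cd3e was at most 0.126 CPM, while Thy1 reached 1.87 CPM and Cd5 1.33 CPM. Of the other dendritic cell markers, Itgax reached 2.36 CPM, Xcr1 1.79 CPM and Zbtb46 0.869 CPM, and Clec10a was the 1 gene of its list at 0 in every library. In bulk RNA, fewer cells of a type and less RNA per cell cannot be told apart.

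The 5 H2 genes lie within 162 kb of mouse chromosome 17 (GRCm38, the assembly of mm10, GENCODE M21), all on the plus strand. In map order they are H2-Oa (chr17:34092340-34095234), H2-DMa (chr17:34119541-34139101), H2-DMb2 (chr17:34143307-34151555), H2-DMb1 (chr17:34153072-34160230) and H2-Ob (chr17:34238903-34254414). The enzymes are scattered: Ctss (chr3:95526786-95556403, plus strand), Lgmn (chr12:102394084-102439813, minus), Ifi30 (chr8:70762774-70766663, minus), Ctsb (chr14:63122462-63145923, plus) and Ctsl (chr13:64359337-64370890, minus). Class II promoters carry a shared module of X1, X2 and Y boxes, which the CIITA coactivator complex reads. RefSeq promoter windows (GRCm38.p6, 250 bases before to 50 after the start site) were held for 9 of the 10 genes, 11 windows in all. The windows of H2-Oa, H2-DMb2, H2-DMb1 and H2-Ob are shown because they hold letters of this module in one order, and that of Ctss because it holds an interferon element. Each reads 5′ to 3′ on the gene's strand, and capitals mark the motif matches named after them.
H2-Oa: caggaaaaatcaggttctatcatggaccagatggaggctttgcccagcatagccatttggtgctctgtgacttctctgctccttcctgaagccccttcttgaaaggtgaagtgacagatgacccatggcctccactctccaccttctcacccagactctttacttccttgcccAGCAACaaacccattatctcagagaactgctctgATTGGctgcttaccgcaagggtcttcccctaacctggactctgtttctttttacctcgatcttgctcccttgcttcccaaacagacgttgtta
H2-DMb2: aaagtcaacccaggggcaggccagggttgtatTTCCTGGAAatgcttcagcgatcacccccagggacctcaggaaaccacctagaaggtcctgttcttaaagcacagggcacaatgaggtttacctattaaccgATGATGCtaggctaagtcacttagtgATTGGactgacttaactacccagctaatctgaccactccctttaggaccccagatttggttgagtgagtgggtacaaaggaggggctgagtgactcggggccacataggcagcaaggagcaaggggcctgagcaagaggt
H2-DMb1: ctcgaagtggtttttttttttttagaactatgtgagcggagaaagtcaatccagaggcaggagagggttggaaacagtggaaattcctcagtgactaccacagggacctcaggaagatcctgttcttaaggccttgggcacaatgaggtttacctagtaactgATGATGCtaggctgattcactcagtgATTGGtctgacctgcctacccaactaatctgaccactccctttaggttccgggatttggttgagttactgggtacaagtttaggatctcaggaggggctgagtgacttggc
H2-Ob: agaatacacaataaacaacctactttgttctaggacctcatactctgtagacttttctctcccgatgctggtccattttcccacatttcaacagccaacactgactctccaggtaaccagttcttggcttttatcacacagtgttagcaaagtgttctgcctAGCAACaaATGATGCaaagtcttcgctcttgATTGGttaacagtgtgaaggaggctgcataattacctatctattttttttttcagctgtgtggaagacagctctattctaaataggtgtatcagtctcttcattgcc
Ctss: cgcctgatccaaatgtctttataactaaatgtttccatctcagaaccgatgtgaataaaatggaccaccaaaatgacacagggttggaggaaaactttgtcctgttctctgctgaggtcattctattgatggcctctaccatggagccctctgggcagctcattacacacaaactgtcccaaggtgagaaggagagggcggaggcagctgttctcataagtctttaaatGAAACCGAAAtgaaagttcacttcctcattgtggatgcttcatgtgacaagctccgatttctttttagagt

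The motifs were searched on both strands in 32851 windows of the same length. The Y box core ATTGG stood at -43 to -39 of the H2-Oa start site, at -90 to -86 in H2-DMb2, at -61 to -57 in H2-DMb1 and at -57 to -53 in H2-Ob. It also stood at -88 to -84 in the first window of Lgmn, and 37.4% of all windows hold it. The X1 core AGCAAC stood upstream of it in H2-Oa (-77 to -72) and H2-Ob (-88 to -83), with 14.8% of all windows holding it. The letters ATGATGC, which were picked as an X2 box after the windows had been read, stood in H2-DMb2 (-116 to -110), H2-DMb1 (-87 to -81) and H2-Ob (-80 to -74), against 2.46% of all windows. The first H2-DMa window held none of the motifs searched, and its second start site had only a distant ATTGG (-198 to -194). Both H2-DMa windows (chr17:34122582-34122881 and chr17:34125268-34125567) lie inside the annotated gene, which begins at 34119541. The sequence at that annotated start was not searched, so the windows do not show whether H2-DMa has the module elsewhere. The H2-DMb2 window also lies inside its annotated gene. The interferon regulatory factor element, GAAA on both sides of 2 free bases, stood at -21 to -12 in Ctss, with 3.44% of all windows holding it. The further capitals in H2-DMb2 are a gamma activated site, TTCNNNGAA, at -218 to -210, held by 8.3% of all windows. The E box CACGTG, the core of the lysosomal gene element, was found in Ifi30, Ctsl and the second Lgmn window, with 7.15% of all windows holding it, and the cAMP response element core TGACG in Ifi30 (-241 to -237, minus strand of the window), with 20.8% of all windows holding it. None of the motifs overlaps another in the windows shown, and a match is a run of letters, not a measured binding site.

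**Figure D1:**
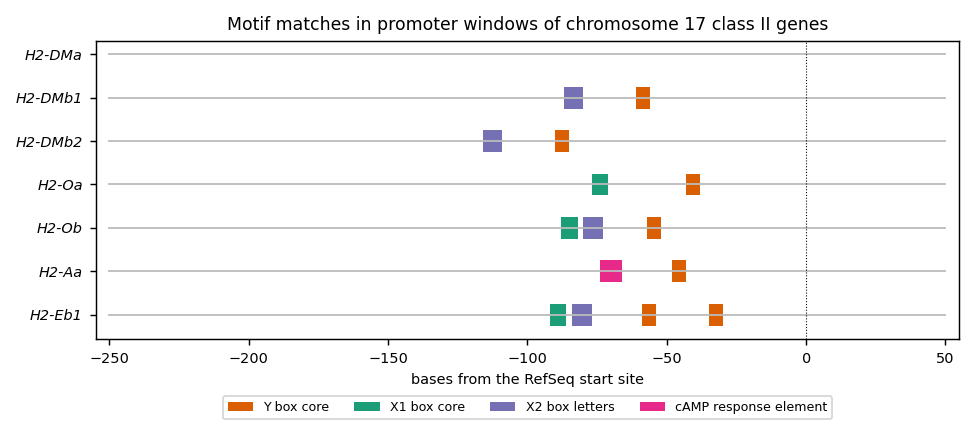
Motif matches by distance in bases from the RefSeq start site (dotted line at 0) for the 5 H2 genes (first RefSeq window of each) and the class II chains H2-Aa and H2-Eb1; each grey line is one window and each bar one match. The X1 or X2 letters lie upstream of a Y box core in all windows shown except the first window of H2-DMa, which is empty, and that of H2-Aa, which has a cAMP response element there. The H2-DMa window lies inside the annotated gene, and the sequence at the annotated start of H2-DMa was not searched.

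Per kilobase of exon, H2-DMb2 was the most abundant of the genes in KO cohort WT, at 271 CPM per kb. Ifi30 (145) and Ctss (140, each CPM per kb) followed, then H2-Ob (102), Lgmn (102) and H2-DMb1 (96.8), then H2-DMa (71.7) and H2-Oa (67.8). Ctsb reached 12.0 and Ctsl 0.177 CPM per kb. Ifi30 and Ctss, the middle trio, and H2-DMa with H2-Oa differed within each set by less than their replicate spread. Exon lengths join all annotated transcripts, so a gene with long rare exons reads low on this scale. In these genes no difference between the wild types of the cohorts was detected: 0 of 10 passed the edgeR quasi-likelihood test for RH cohort WT against KO cohort WT (lowest adjusted p = 0.530, none with an unadjusted p below 0.05, and 0 by DESeq2 or limma-voom). All 10 overlapped between these groups, with log2 differences from -0.18 to 0.13. The wild types did differ elsewhere, with 5.06% of all genes tested passing, and 0 of 10 is near that share.

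**Figure D2:**
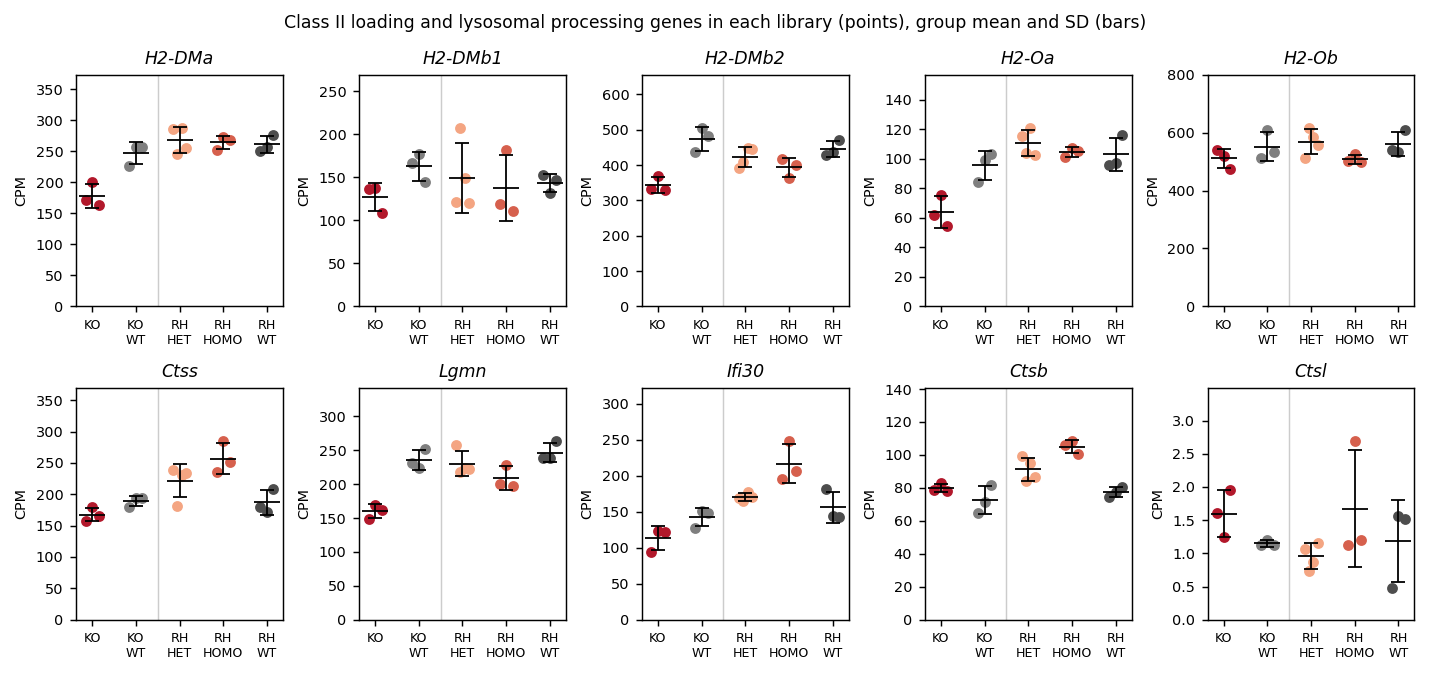
CPM of each gene in each library (points) with group mean and SD (bars), for KO, KO cohort WT (KO WT), RH HET, RH HOMO and RH cohort WT (RH WT). H2-DMa, H2-DMb2, H2-Oa and Lgmn lie lower in all 3 KO libraries than in all 3 KO cohort WT libraries, and Ctss, Ctsb and Ifi30 lie higher in all 3 RH HOMO libraries than in all 3 RH cohort WT libraries.

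Loss of Crebbp went with lower RNA of the peptide editor H2-DM, of the alpha chain of its inhibitor and of one processing enzyme. H2-DMa, H2-DMb2, H2-Oa and Lgmn fell by 27.6% to 33.0% in KO against KO cohort WT. These 4 of 10 genes passed the edgeR quasi-likelihood test at a Benjamini-Hochberg adjusted p under 0.05, all lower, against 0.729% of the 16606 genes tested. None rose, against 0.572% of all genes tested. In 7 of the 10 genes every KO library lay below every KO cohort WT library, against 12.7% of all genes, and the median log2 difference was -0.34, against -0.002 over all genes tested.

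H2-DMa, the alpha chain of H2-DM, was at 171, 200.4 and 163 CPM in KO, against 227, 257 and 258 CPM in KO cohort WT. The groups did not overlap, and KO 2 was the highest of the KO libraries. The log2 difference was -0.47 ± 0.10 (SE; adjusted p = 0.0209, edgeR). The beta chain H2-DMb2 was at 332, 369 and 330.0 CPM in KO, against 437, 505 and 481 CPM in KO cohort WT, again without overlap. It differed by -0.47 ± 0.09 (adjusted p = 0.0186, edgeR). The other beta chain, H2-DMb1, was at 137, 137 and 109 CPM in KO, against 167, 177 and 144 CPM in KO cohort WT. It also did not overlap, but its difference of -0.35 ± 0.19 did not pass (adjusted p = 0.511, edgeR). The beta chain genes are near-identical in places: 22.7% of the 50-base windows of H2-DMb1 transcripts also occur in H2-DMb2, and 21.2% the other way round, so their separate counts are uncertain. Summed, the pair differed by -0.44 on the log2 scale (adjusted p = 0.0239, edgeR).

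H2-Oa, the alpha chain of H2-O, was at 61.7, 75.7 and 54.4 CPM in KO, against 84.3, 98.8 and 103 CPM in KO cohort WT. No KO library reached the lowest wild type one, and the log2 difference was -0.58 ± 0.12 (adjusted p = 0.0218, edgeR). H2-Ob, its beta chain, did not pass. It was at 539, 520.1 and 475 CPM in KO, against 514, 609 and 531 CPM in KO cohort WT, which overlap, with a difference of -0.11 ± 0.10 (adjusted p = 0.743, edgeR; 95% interval -0.32 to 0.10). The ratio of H2-Ob to the summed H2-DM beta chains was 1.15, 1.03 and 1.08 in KO, against 0.850, 0.893 and 0.850 in KO cohort WT. The KO ratios were all higher. Those of RH cohort WT, at 0.928, 0.935 and 0.986, also lay above every KO cohort WT ratio, so the wild types differed in it too. The ratio of H2-Oa to H2-DMa averaged 0.357 ± 0.022 in KO and 0.385 ± 0.014 in KO cohort WT (SD, n = 3 each). The ratios are given as descriptions with no test.

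Among the enzymes, Lgmn (legumain, an asparagine-specific endopeptidase of the lysosome) was at 149, 169.7 and 162 CPM in KO, against 232, 224 and 252 CPM in KO cohort WT. The gap between the groups was wider than the range of either, and the difference was -0.56 ± 0.09 (adjusted p = 0.00632, edgeR). Ifi30 (GILT, a thiol reductase that opens disulfide bonds of antigens) was at 93.6, 124 and 122 CPM in KO, against 128, 151 and 148 CPM in KO cohort WT, without overlap and without passing (-0.34 ± 0.12, adjusted p = 0.235, edgeR). Ctss, the cathepsin that makes the late cuts of the invariant chain in B cells, was at 158, 179 and 165 CPM in KO, against 180.4, 194 and 195 CPM in KO cohort WT. The groups nearly touch, and the difference of -0.18 ± 0.11 did not pass (adjusted p = 0.567, edgeR). Ctsb, a broad lysosomal cysteine protease, averaged 79.9 ± 2.65 CPM in KO and 72.6 ± 8.49 CPM in KO cohort WT (SD, n = 3 each), with overlap and a difference of 0.14 ± 0.09 (adjusted p = 0.622, edgeR). Ctsl, which trims the invariant chain mainly in thymic epithelium, had only 56 to 102 counts per library in KO and 54 to 114 in KO cohort WT. Its values of 1.61, 1.24 and 1.95 CPM in KO lay above 1.12, 1.20 and 1.13 CPM in KO cohort WT, with a wide error (0.48 ± 0.40, adjusted p = 0.729, edgeR).

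Some sets of cell type markers also differed in KO. The 9 dendritic cell markers summed to 35.3 to 39.1 CPM in KO, against 47.0 to 58.0 CPM in KO cohort WT. Most of this sum was Flt3, at 34.2 to 38.5 CPM in KO, against 45.3 to 56.5 CPM in KO cohort WT (log2 difference -0.51 ± 0.12, adjusted p = 0.0473, edgeR), and 2 of the 9 markers were at 0 in all KO libraries, against 3 in all KO cohort WT libraries. The 12 T cell markers summed to 78.2 to 83.0 CPM in KO, against 98.9 to 112 CPM in KO cohort WT. Nearly all of this sum was Lck, at 76.2 to 81.5 CPM in KO, against 96.9 to 109.9 CPM in KO cohort WT (-0.42 ± 0.14, adjusted p = 0.160, edgeR), and of the 6 T cell markers tested 3 had positive and 3 negative differences, none passing. The 20 macrophage and monocyte markers summed to 22.3 to 23.6 CPM in KO, against 22.5 to 28.1 CPM in KO cohort WT. Of the 16 tested, 9 had positive and 7 negative differences, with a median of 0.37, none passing. The 14 B cell and germinal centre markers summed to 11753 to 12396 CPM in KO, against 13486 to 13726 CPM in KO cohort WT. Their differences were positive for 4 and negative for 10. Only Rgs13, a regulator of G protein signalling typical of germinal centre B cells, passed, lower in KO (-1.58 ± 0.23, adjusted p = 0.00223, edgeR). The 10 follicular naive B cell markers summed to 662 to 795 CPM in KO, against 665 to 775 CPM in KO cohort WT, with overlap. Of these markers, 7 had positive and 3 negative differences, none passing. The median difference was 0.47, against -0.002 over all genes tested, and the sum showed no such rise. The part of the marked cells in the fall of the loading genes was not tested.

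**Figure D3:**
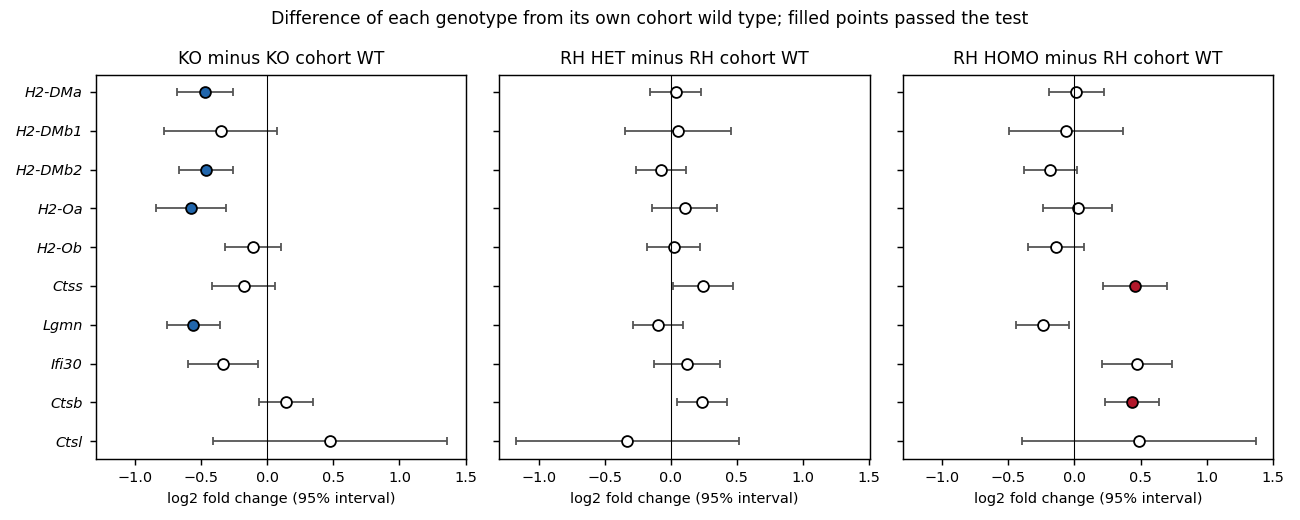
Log2 fold change of each gene in KO, RH HET and RH HOMO against the wild type of its own cohort, with 95% intervals. The intervals take the SE and a t quantile at 11 residual degrees of freedom, fewer than the edgeR test uses. They are therefore wider than its p-values imply. Filled points passed the edgeR test at an adjusted p under 0.05 (blue lower, red higher). In KO the filled points are H2-DMa, H2-DMb2, H2-Oa and Lgmn at -0.58 to -0.47, in RH HOMO they are Ctss and Ctsb at 0.46 and 0.44, and RH HET has none.

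In RH HOMO, the cathepsins Ctss and Ctsb rose by 37.5% and 35.3% against RH cohort WT, and 2 of 10 genes therefore passed in the higher direction, against 0.578% of all genes tested. None fell by the test, against 0.994% of all genes tested. In 3 genes every RH HOMO library lay above every RH cohort WT library (7.39% of all genes did), and in 3 every one lay below (8.03% of all genes did). The median log2 difference was 0.02 for the 10 genes and 0.02 over all genes tested.

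Ctss was at 235, 284 and 251 CPM in RH HOMO, against 180.1, 172 and 209 CPM in RH cohort WT. RH HOMO 2 was the highest library of the series, and the log2 difference was 0.46 ± 0.11 (adjusted p = 0.0423, edgeR). Ctsb was at 106, 108 and 101 CPM in RH HOMO, against 74.6, 77.4 and 80.7 CPM in RH cohort WT, and differed by 0.44 ± 0.09 (adjusted p = 0.0232, edgeR). Both groups of Ctsb were tight and far apart, with 105 ± 3.96 CPM in RH HOMO and 77.5 ± 3.04 CPM in RH cohort WT (SD, n = 3 each). Of the Ctsb exon bases 12.8% overlap Fdft1, an enzyme gene of sterol synthesis on the other strand, and the counting is not stated to use strand. Fdft1 was at -0.19 ± 0.13 in RH HOMO (adjusted p = 0.589, edgeR), and the part of its reads in the Ctsb count was not tested. Ifi30 was at 196, 248 and 206 CPM in RH HOMO, against 181, 145 and 143 CPM in RH cohort WT. It did not overlap either, but missed the threshold at 0.47 ± 0.12 (adjusted p = 0.0622, edgeR), and RH cohort WT 1 was the highest of its wild types. DESeq2 (adjusted p = 0.0155) and limma-voom (adjusted p = 0.0135) called it higher, and its adjusted p ranged from 0.00942 to 0.348 over the 12 refits other than single omissions, passing in 5. Ctsl varied from 1.13 to 2.69 CPM in RH HOMO, against 0.472 to 1.57 CPM in RH cohort WT (0.49 ± 0.40, adjusted p = 0.674, edgeR).

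The editors and Lgmn did not pass in RH HOMO. H2-DMa averaged 264 ± 10.7 CPM in RH HOMO and 262 ± 13.7 CPM in RH cohort WT, and H2-Oa 105 ± 3.29 CPM in RH HOMO and 103 ± 11.2 CPM in RH cohort WT (SD, n = 3 each). Their log2 differences were 0.01 (95% interval -0.19 to 0.22) and 0.02 (-0.24 to 0.29), so a fall as large as the KO estimate lies outside both intervals. H2-DMb2 was at 417, 363 and 399 CPM in RH HOMO, against 429.6, 437 and 471 CPM in RH cohort WT, all lower but not past the test (-0.18 ± 0.09, adjusted p = 0.434, edgeR). Lgmn was at 199.6, 229 and 197 CPM in RH HOMO, against 238, 238 and 263 CPM in RH cohort WT (-0.24 ± 0.09, adjusted p = 0.238, edgeR), and H2-Ob likewise lay just below its wild type (-0.14 ± 0.10, adjusted p = 0.590, edgeR). H2-DMb1 spread widely, at 119, 181 and 111 CPM in RH HOMO, against 152, 132 and 147 CPM in RH cohort WT (-0.06 ± 0.19, adjusted p = 0.930, edgeR).

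Several other measures are given beside the RH HOMO result. The mitochondrial share and each summed marker list overlapped between RH HOMO and RH cohort WT. Mitochondrially encoded genes took 4.59%, 5.28% and 4.32% of counts in RH HOMO, against 7.34%, 7.15% and 4.72% in RH cohort WT. The 20 macrophage and monocyte markers summed to 24.8 to 41.4 CPM in RH HOMO, against 26.6 to 32.9 CPM in RH cohort WT, and none was at 0 in all libraries of either group. Of the 16 tested, 11 had positive and 5 negative differences, with a median of 0.68, none passing. Adgre1, the F4/80 antigen of macrophages, was at 2.56 to 2.90 CPM in RH HOMO, against 0.734 to 1.56 CPM in RH cohort WT (1.14 ± 0.31, adjusted p = 0.0768, edgeR). Dendritic cell markers summed to 44.6 to 59.5 CPM in RH HOMO, against 46.9 to 54.4 CPM in RH cohort WT, with Itgax at 1.64 to 2.36 CPM in RH HOMO, against 0.461 to 0.583 CPM in RH cohort WT (1.82 ± 0.49, adjusted p = 0.0776, edgeR). Of the 5 dendritic cell markers tested, 2 had positive and 3 negative differences, with a median of -0.06. T cell markers summed to 105.9 to 116 CPM in RH HOMO, against 105 to 150.3 CPM in RH cohort WT, and of the 6 tested 2 had positive and 4 negative differences, with a median of -0.58. The 14 B cell and germinal centre markers summed to 10342 to 11703 CPM in RH HOMO, against 11670 to 12402 CPM in RH cohort WT. Of these, 4 had positive and 10 negative differences, with a median of -0.13. The 10 follicular naive B cell markers summed to 771 to 821 CPM in RH HOMO, against 705 to 890 CPM in RH cohort WT. Of these, 7 had positive and 3 negative differences, with a median of 0.37. Among all markers, Thy1 of T cells (2.16 ± 0.48, adjusted p = 0.0282) and Gpr183 of naive B cells (0.92 ± 0.22, adjusted p = 0.0443) rose and Mef2b of germinal centre B cells fell (-0.57 ± 0.11, adjusted p = 0.0143, all edgeR). The part of the marked cells in the rise of Ctss and Ctsb was not tested. With the mitochondrial share as a term in the fit, neither gene passed (Ctsb 0.36, adjusted p = 0.0996; Ctss 0.29, adjusted p = 0.181, edgeR).

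In RH HET none of the 10 genes passed, while 0.0181% of all genes tested did (edgeR, lowest adjusted p = 0.596; 0 by DESeq2 and 1, Ctss, by limma-voom). An unadjusted p below 0.05 was reached by 2 of the 10, against 7.18% of all genes. They were the cathepsins that rose in RH HOMO, which shares its wild type libraries with RH HET. Ctsb was at 99.2, 84.3, 95.3 and 86.7 CPM in RH HET, against 74.6, 77.4 and 80.7 CPM in RH cohort WT. It was the only one of the 10 without overlap (2.97% of all genes lay above in this way), with a difference of 0.24 ± 0.09 (adjusted p = 0.596, edgeR). Ctss was at 239, 182, 231 and 234 CPM in RH HET, against 180.1, 172 and 209 CPM in RH cohort WT. RH HET 2 lay inside the wild type range and the other 3 above it (0.24 ± 0.10, adjusted p = 0.662, edgeR). Ifi30 averaged 170.4 ± 5.19 CPM in RH HET (SD, n = 4) and 156 ± 21.5 CPM in RH cohort WT (SD, n = 3), and the other 7 genes differed by -0.33 to 0.10 on the log2 scale.

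Between the RH genotypes, RH HOMO against RH HET gave no passing gene among the 10, nor among all genes tested (0%), and 11.4% of all genes had an unadjusted p below 0.05. Of the 10, 4 had one (edgeR), and none passed by DESeq2 or limma-voom. Ifi30 was higher in every RH HOMO library than in every RH HET library (0.35 ± 0.11, adjusted p = 0.334), as was Ctsb (0.20 ± 0.09, adjusted p = 0.420, both edgeR); 3.78% of all genes lay above in this way. Ctss averaged 257 ± 25.1 CPM in RH HOMO (SD, n = 3) and 222 ± 26.6 CPM in RH HET (SD, n = 4), and Ctsb 105 ± 3.96 CPM in RH HOMO and 91.3 ± 7.04 CPM in RH HET.

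Whether the RH HOMO difference itself departed from the KO difference was tested as the difference between both contrasts. None of the 10 passed in edgeR, against 0.241% of all genes, although 7 had an unadjusted p below 0.05 (9.53% of all genes did). Ifi30 came nearest, at 0.81 ± 0.17 (adjusted p = 0.0632), followed by Ctss at 0.64 ± 0.15 (adjusted p = 0.105), H2-DMa at 0.49 ± 0.13 (adjusted p = 0.172) and H2-Oa at 0.60 ± 0.17 (adjusted p = 0.174). DESeq2 called 3 of them, H2-DMa, Ctss and Ifi30, and limma-voom called 4, H2-Oa in addition. The estimates were positive for 9 of 10 genes, against 51% of all genes, H2-Ob being the exception at -0.03, with a median of 0.31, against 0.01 over all genes tested. The cohort and the allele cannot be told apart in this comparison beyond each cohort's own wild type.

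**Figure D4:**
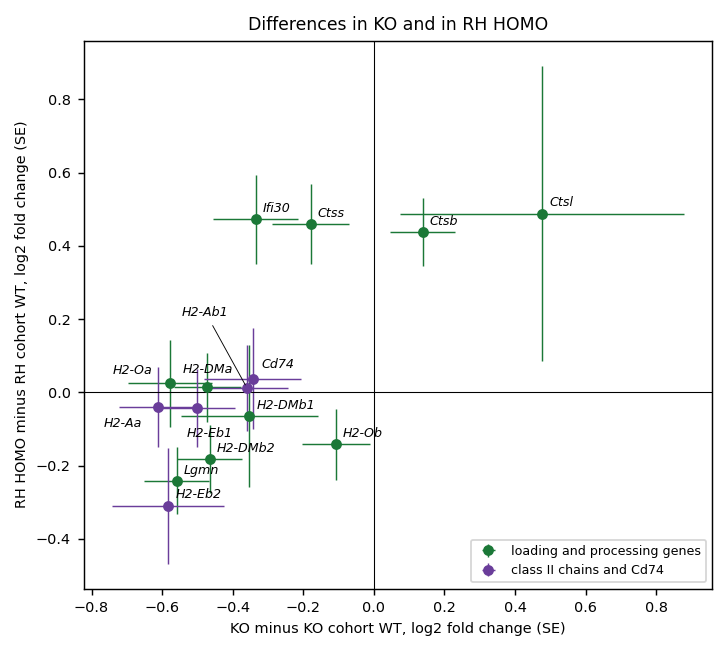
Log2 fold change in KO (horizontal axis) and in RH HOMO (vertical axis), each against its own cohort's wild type, for the 10 genes (green) and the class II chains with Cd74 (purple), bars one standard error. Ifi30 and Ctss stand upper left, at -0.34 and -0.18 in KO and 0.47 and 0.46 in RH HOMO, while H2-DMa and H2-Oa lie left of 0 near the horizontal line.

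The calls depended on single libraries. In KO the count of lower genes stayed at 4 without KO cohort WT 1 or KO 2. It was 1, Lgmn, without KO cohort WT 2, KO cohort WT 3 or KO 3, and 0 without KO 1 (Lgmn adjusted p = 0.0517). The estimates moved less: Lgmn lay between -0.59 and -0.50, H2-DMa between -0.55 and -0.40, H2-DMb2 between -0.51 and -0.40 and H2-Oa between -0.70 and -0.46. In RH HOMO, Ctsb lay between 0.41 and 0.46 and passed in 3 of 6 omissions, failing without RH HOMO 1, RH cohort WT 1 or RH cohort WT 2. Ctss lay between 0.38 and 0.54 and passed in 1 of 6, without RH cohort WT 3. Ifi30 passed in 1 of 6, without RH cohort WT 1 (0.59, adjusted p = 0.0344). Without both outlying libraries, RH cohort WT 1 and RH HOMO 2, Ctsb was at 0.39 (adjusted p = 0.117), Ctss at 0.35 (adjusted p = 0.238) and Ifi30 at 0.48 (adjusted p = 0.0553, all edgeR), and the KO count stayed at 4.

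**Figure D5:**
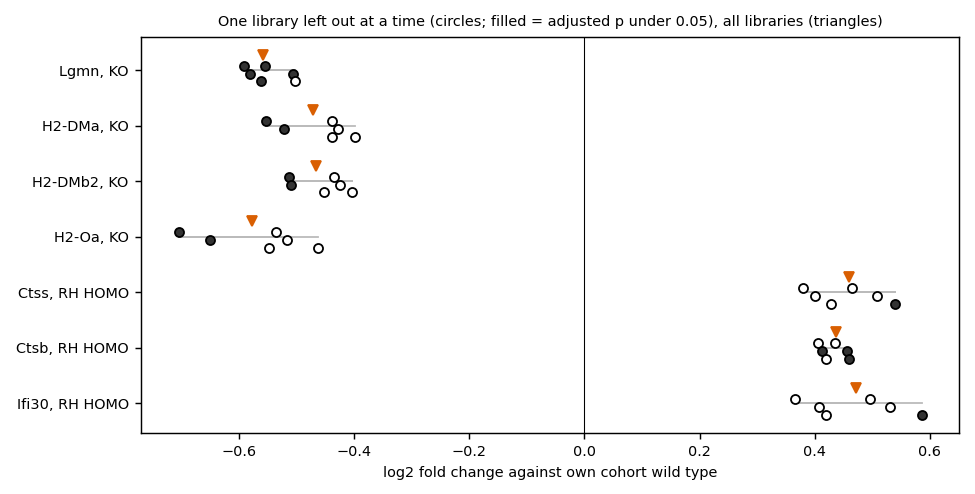
Log2 fold change of 7 gene and genotype pairs with all libraries (triangles) and with 1 library left out at a time (circles, filled where the adjusted p stayed under 0.05; vertical shifts only part the points). All circles of a pair stay on one side of 0, and filled circles number 5 of 6 for Lgmn but 1 of 6 for Ctss.

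Around these genes, the rest of the class II pathway was read from lists. Of the class II chains and Cd74, 2 of 5 fell in KO, against 0.729% of all genes tested, and none rose: H2-Aa, an alpha chain (-0.61 ± 0.11, adjusted p = 0.0108), and H2-Eb1, a beta chain (-0.50 ± 0.11, adjusted p = 0.0260, both edgeR). Cd74, the invariant chain, had -0.34 ± 0.14 (adjusted p = 0.298), and Ciita, the class II coactivator, -0.16 ± 0.13 (adjusted p = 0.724, edgeR). None of the 8 class II transcription genes passed in KO, nor did any of 9 other cathepsins, 5 protease inhibitors and 10 trafficking genes tested. Set against the same 0.729%, 1 of 29 lysosome genes fell, Scarb2, the receptor that carries glucocerebrosidase to lysosomes (-0.46 ± 0.10, adjusted p = 0.0253), and of 22 interferon gamma response genes 1 fell, Ifngr1, a receptor chain (-0.48 ± 0.10, adjusted p = 0.0216, both edgeR).

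Within the H2 region, the class I loading genes Tap1, Psmb8 and Psmb9 lie between H2-DMb1 and H2-Ob, and none of them passed in KO. The peptide transporter Tap1 was at -0.13 ± 0.09, and the immunoproteasome subunits Psmb8 at -0.08 ± 0.15 and Psmb9 at -0.09 ± 0.11 (adjusted p = 0.659, 0.894 and 0.838, edgeR). They were named after their values were seen, and other genes of that interval were not read. Brd2, which shares 10.4% of the exon bases of H2-DMa on the other strand, was at 0.03 ± 0.09 in KO (adjusted p = 0.933, edgeR). H2-Oa shares 22.8% of its exon bases with an antisense gene, BC051537, which has no value here, so its count is uncertain in that respect. Ctsl shares 26.8% of its exon bases with other genes, so its count is uncertain too. Ifi30 shares 8.66% with 6330537M06Rik on the other strand, which averaged 18.0 CPM over all libraries and did not pass in KO (-0.14 ± 0.12, adjusted p = 0.750) or in RH HOMO (0.27 ± 0.12, adjusted p = 0.374, both edgeR).

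In RH HOMO no class II chain and no class II transcription gene passed. Of the 9 other cathepsins tested none passed, while all 9 had positive differences with a median of 0.20, against 0.02 over all genes tested. Of 29 lysosome genes 1 rose, the cholesterol carrier Npc2 (0.56 ± 0.12, adjusted p = 0.0207, against 0.578% of all genes tested), and 1 fell, against 0.994% of all genes, the proton pump subunit Atp6v0a1 (-0.39 ± 0.09, adjusted p = 0.0466, both edgeR). The 22 interferon gamma response genes had 21 positive differences and 1 negative, with a median of 0.39, against 0.02 over all genes tested. By the test 4 of them rose, against 0.578% of all genes tested, and none fell, against 0.994%. The 4 were the transcription factor Irf1 (1.10 ± 0.21, adjusted p = 0.0125) and the interferon-induced GTPases Irgm1 (1.04 ± 0.22, adjusted p = 0.0207), Gbp3 (0.49 ± 0.11, adjusted p = 0.0253) and Igtp (0.76 ± 0.18, adjusted p = 0.0468, all edgeR). In RH HET no gene of any of these lists passed, while the interferon gamma response genes had 17 positive and 5 negative differences. Their median there was 0.24, against -0.007 over all genes tested.

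Within groups, most of the genes were steady. The within-group SD of log2 CPM was 0.09 for H2-DMb2, 0.10 for H2-Ob, Lgmn and Ctsb and 0.11 for H2-DMa, all within the lowest 10.7% of genes tested, and 0.28 for H2-DMb1 and 0.54 for Ctsl. The spread of H2-DMb1 came from 2 libraries. It made up 33.7% of the summed H2-DM beta chain CPM in RH HET 2 and 33.3% in RH HOMO 2, and 21.2% to 29.2% in the other 14. The beta chain sum of these 2 libraries, 615 and 545 CPM, stayed within the range of the others, 439 to 682 CPM.

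After subtracting group means, H2-DMa and H2-Oa moved together across the 16 libraries (Pearson r = 0.948 of log2 CPM, a description over libraries that share depth and scaling). Among 9178 other genes the closest to H2-DMa was Zdhhc18 (r = 0.930), followed by Bbc3 (0.890), and Zdhhc18 was also closest to H2-Oa (0.942), followed by Klc2 (0.939). The closest to H2-DMb1 were Carns1 (0.960) and Acrbp (0.957), to H2-DMb2 Fbxo30 (0.864) and Pik3cd (0.857), and to H2-Ob Vezt (0.907) and Gsdmd (0.883). For the enzymes they were Itm2b (0.930) and Tmbim6 (0.922) for Ctss, Mkrn1 (0.910) and Cotl1 (0.889) for Lgmn, Msh6 (0.912) and Timm29 (0.912) for Ifi30, Grk2 (0.927) and Selenop (0.896) for Ctsb, and Sla (0.887) and Cd2 (0.875) for Ctsl.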

How the data were processed

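Germinal centre B cell RNA of 16 mouse libraries was sequenced from TruSeq v2 libraries, per the labels. The authors deposited whole-number read counts per gene symbol, not normalized. The submitters' processing notes list featureCounts, HISAT2 and CASAVA 1.8, on build mm10. For the first pair the versions, and for all the strand setting, were not given in the sources used here. TruSeq v2 does not mark strand, and reads of overlapping genes cannot be told apart.

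Groups come from the titles, since the genotype tag is shifted, and replicate numbers follow accession order. Counts were filtered with filterByExpr (16606 of 48593 genes kept), scaled by TMM and fitted in R 4.3.3 with edgeR 4.0.16 (quasi-likelihood, 5 group means, all 16 libraries, Benjamini-Hochberg over all genes tested, threshold 0.05). A fold change is genotype minus the wild type of its cohort, and its standard error is the log2 fold change divided by the root of F. DESeq2 1.42.0 and limma-voom 3.58.1 were alternatives, the latter with quality weights that count outlying libraries less. Other filters, sex and mitochondrial terms, other control groups and each library left out were also tried. Scripts were tested on simulated data. All 10 genes are named in every comparison; other genes are named where called, at most 4 per list and comparison, with H2 region neighbours, overlapping genes and defining markers beside them, and the 2 genes of highest within-group Pearson r to each. The members, lists and tests were chosen with earlier results of these data known. Tap1, Psmb8, Psmb9, Adgre1, Itgax, Cd5, Xcr1 and Zbtb46 were named after their values were seen. Promoter windows are from RefSeq (GRCm38.p6) and positions from GENCODE M21. No column of the table was left unused.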

Additional observations from a re-analysis of the deposited data

Results flagged for a closer look

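In RH HET, 2 of the 10 genes had 1 library far from the other 3 by Dixon's criterion, whose 95% critical value for 4 samples is 0.829. Ctss had a gap ratio of 0.867 because RH HET 2, at 182 CPM, lay below the others at 231 to 239 CPM. Lgmn had a gap ratio of 0.843 because RH HET 1, at 257 CPM, lay above the others at 218 to 224 CPM. Chance flags about 1 in 20 groups, and 10 genes were examined in the 1 group of 4 libraries.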

How the results depend on the processing

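The 4 lower calls in KO were kept under the other normalizations, filters, tools and covariates tried, and became 2 when the log2 change also had to reach 0.5 in size. The 2 higher calls in RH HOMO became 0 with that requirement, with only the groups of the contrast fitted, with RH cohort WT 1 moved to KO cohort WT, with RH cohort WT 1 and RH HOMO 2 left out, and with the mitochondrial share as a term. They became 3, with Ifi30 added, by DESeq2 and limma-voom, with no filter, at an adjusted p under 0.1, with all 6 wild type libraries as control or with sex as a term. In RH HOMO limma-voom gave 1 lower call (Lgmn) and 1 higher call in RH HET (Ctss). The difference between RH HOMO and KO effects went from 0 higher calls to 1 with no filter, at an adjusted p under 0.1, without RH cohort WT 1 and RH HOMO 2, or with sex as a term, and to 3 by DESeq2 and 4 by limma-voom. With all 6 wild type libraries as 1 control it gave 6 higher calls. There the shared control cancels, so RH HOMO was compared directly with KO and the cohorts were not accounted for. Leaving out 1 library gave 0 to 4 lower calls in KO, 0 to 2 higher calls in RH HOMO, 0 to 1 higher in the difference of effects, and 0 to 0 elsewhere. The causes were not tested.

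Differences near 0 changed sign. For RH HOMO, H2-DMa was -0.0024 with a minimum of 1 CPM, -0.023 by limma-voom, -0.029 with RH cohort WT 1 moved, -0.039 without the 2 outlying libraries and -0.088 with the mitochondrial term (-0.020 to 0.051 leaving out 1 library). H2-Oa was -0.040, -0.046 and -0.11 under the last 3 of these (-0.031 to 0.11), H2-DMb1 0.18 with the mitochondrial term (-0.32 to 0.056), and Ctsl -0.16 by limma-voom and -0.40 without the 2 libraries (-0.040 to 0.73). For RH HET, H2-DMa was -0.079 and H2-Oa -0.050 with the mitochondrial term, H2-DMb1 -0.019 by limma-voom and -0.038 with all wild types (-0.13 to 0.16), and H2-Ob -0.0062 with RH cohort WT 1 moved (-0.0076 to 0.091). No paired analysis was possible because the replicate numbers were only given in accession order.

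Depth limits Ctsl, with 18 to 170 counts per library.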
